A study of Mus musculus with 9 samples.

Results

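Bone and cartilage genes were followed in mouse nasal mucosa, a tissue that lies directly on the thin turbinate bones of the nose. The set is 10 genes of the 21930 in the deposited table, found by their Ensembl identifiers: the bone matrix proteins Dmp1, Ibsp, Spp1, Mepe and Bglap, the bone-forming regulator Sp7, the osteocyte genes Phex and Sost, the cartilage proteoglycan gene Acan, and Acp5, the enzyme of bone-resorbing cells. The genes were chosen by name and not by a rule on measured values, but with earlier results of these data known.

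The study sequenced poly(A) RNA from wild-type mice in 9 libraries, 3 in each of 3 groups, taken on day 12. The control group had no treatment. The papain group received papain, a plant protease that inflames the airway, into the nose at 20 µg in 20 µl of saline on days 0 to 2 and 7 to 11, as a model of eosinophilic chronic rhinosinusitis (eCRS). The papain+MSC-Exos group had the same papain and, on days 7 to 11, exosomes of mesenchymal stromal cells, which are small membrane vesicles that these cells release; the protocol names saline as the alternative to exosomes. The labels give no strain, age or sex and do not say whether each library is a separate mouse, so the p-values cover the spread among these libraries alone, part of which may be technical.

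Bone is laid down by osteoblasts, which secrete type I collagen and acidic, calcium-binding proteins. Osteoblasts that become buried in the matrix turn into osteocytes, which control mineral and phosphate, and osteoclasts, large cells of the macrophage lineage, dissolve bone. In the nose these cells sit in the turbinates and the septum, so a mucosal sample can carry their transcripts. In such bulk samples fewer cells of a type and less RNA per cell cannot be told apart.

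The 10 genes lie on 7 chromosomes, but 4 of them stand side by side. In GENCODE M21 (GRCm38), Dmp1 (chr5:104202613-104214102), Ibsp (chr5:104299171-104311469), Mepe (chr5:104325329-104338611) and Spp1 (chr5:104435118-104441050), all on the plus strand, follow Dspp (chr5:104170712-104180127). These 5 genes encode the SIBLING proteins, a family of secreted matrix proteins of bone and dentin, and no other protein-coding gene lies in this stretch of 270.3 kb. Bglap (chr3:88383501-88384464, minus strand) lies beside its copies Bglap2 (chr3:88377736-88378699) and Bglap3 (chr3:88368616-88372743). The others are Sp7 (chr15:102356606-102367182), Phex (chrX:157162075-157415312), Sost (chr11:101962458-101967015) and Acp5 (chr9:22126727-22135711), all on the minus strand, and Acan (chr7:79053483-79115099) on the plus strand. All are protein-coding.

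Because reads of near-identical genes can be shared out between them, the coding sequences of the osteocalcin copies were compared. All 3 have 285 coding bases; Bglap differed from Bglap2 at 4 of them (98.6% identity) and from Bglap3 at 13 (95.4%). A stretch of 60 coding bases, numbers 190 to 249 from the start codon in the GENCODE M21 transcripts, shows how little separates them. Capitals mark the 5 positions in this stretch at which the 3 genes differ.
Bglap: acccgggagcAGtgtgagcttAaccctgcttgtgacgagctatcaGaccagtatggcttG
Bglap2: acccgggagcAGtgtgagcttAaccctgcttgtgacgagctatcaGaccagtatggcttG
Bglap3: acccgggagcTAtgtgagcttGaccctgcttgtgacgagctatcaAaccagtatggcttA
Bglap and Bglap2 have the same letters here, so a read from this stretch fits both of them equally. How such reads were assigned is not given in the sources used here, and the split between Bglap and Bglap2 is therefore uncertain.

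The promoters of the matrix genes were read for the core motif of RUNX factors, ACCACA, on either strand, since Runx2 is the master regulator of osteoblasts. On the opposite strand the motif reads TGTGGT. RefSeq (GRCm38.p6) gave windows of 250 bases before the start for 9 of the 10 members, with 13 starts in all; Sp7 had no entry. The motif stood in 4 of the 13 windows, those of Dmp1, Bglap, Mepe and Spp1, against 14.0% of all 32851 windows of this length. It was chosen after a first scan with the longer AACCACA, which contains it and which only Dmp1 and Spp1 carried among the members, against 4.40% of all windows. The windows of Dmp1, Spp1 and Bglap are shown because these genes gave different patterns in the libraries; capitals mark the motif.
Dmp1, chr5:104202367-104202616, plus strand: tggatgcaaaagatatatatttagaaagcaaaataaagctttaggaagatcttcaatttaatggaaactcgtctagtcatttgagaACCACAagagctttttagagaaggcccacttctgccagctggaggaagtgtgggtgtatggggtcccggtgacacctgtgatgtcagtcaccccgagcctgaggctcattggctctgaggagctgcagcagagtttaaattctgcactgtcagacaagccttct
Spp1, chr5:104434861-104435110, plus strand: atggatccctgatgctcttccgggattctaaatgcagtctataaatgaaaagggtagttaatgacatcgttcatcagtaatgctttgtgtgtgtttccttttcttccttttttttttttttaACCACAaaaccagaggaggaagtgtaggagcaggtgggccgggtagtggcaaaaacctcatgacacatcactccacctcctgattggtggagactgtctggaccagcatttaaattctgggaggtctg
Bglap, chr3:88384467-88384716, minus strand: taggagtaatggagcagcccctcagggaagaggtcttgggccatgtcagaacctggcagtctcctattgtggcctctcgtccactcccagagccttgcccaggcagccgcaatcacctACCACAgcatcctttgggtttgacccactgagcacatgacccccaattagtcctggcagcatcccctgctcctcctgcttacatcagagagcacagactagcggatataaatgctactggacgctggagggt
The motif began 164, 128 and 132 bases before the start of Dmp1, Spp1 and Bglap in the windows shown. Dmp1 and Spp1 each had another listed start, whose window held no match. The window of Ibsp held no match, which says only that these letters are absent from it.

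The authors deposited FPKM, in which the fragments of a gene are divided by its length and by the total of its library, so that levels of different genes can be set side by side. FPKM falls for every gene when a few abundant genes take more of a library, and in nasal mucosa the secreted proteins of the glands do so. The 15 genes of highest mean took 77.0% to 78.6% of the summed FPKM of the controls, 64.7% to 77.8% after papain (highest in papain library 2) and 38.2% to 64.3% with exosomes (highest in exosome library 3). All comparisons were therefore repeated after median-of-ratios scaling, which gives every library the same typical level; the divisors were 0.763 to 0.765, 0.71 to 1.07 and 1.18 to 1.75 in the same order of groups. Of all tested genes, 84.3% were called higher in exosome libraries than in controls as deposited and 12.3% after scaling. Changes are therefore given on both scales, as log2 differences of FPKM + 1 with their standard errors, from limma with Benjamini-Hochberg adjustment over 12738 genes as deposited and 12507 scaled. A gene is called at an adjusted p under 0.05. Depth is unknown, as whole reads could not be recovered from the FPKM. All 8 marker genes of nasal mucosa, such as Obp1a, an odorant-binding protein, and Omp of olfactory neurons, were above 0 in every library. Their levels differed between libraries, however. Omp ran from 78.5 FPKM in papain library 2 to 739 in exosome library 2. Obp1a was at 70653 to 91187 FPKM in the controls and at 28939, 37322 and 67350 with exosomes.

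In 3 libraries transcripts of teeth stood out, in genes that were looked at after their values were seen. The marker list holds Dspp, the dentin protein of odontoblasts, the enamel genes Amelx, Ambn, Enam, Amtn, Klk4 and Mmp20, and Odam. Without Odam, which was at 111 to 176 FPKM in every library, the other 7 summed to 144 FPKM in control 2, 117 in control 3 and 98.0 in papain+MSC-Exos 3, and to at most 0.22 in each of the other 6 libraries. All 7 were above 0 in those 3 libraries and in no other. Dspp was at 62.6 FPKM in control 2 and 39.6 in control 3, at 0.038 in papain+MSC-Exos 3, at 0.154 in papain+MSC-Exos 1 and listed at 0 in the remaining 5 libraries. Amelx was at 55.5, 42.3 and 76.5 FPKM in control 2, control 3 and papain+MSC-Exos 3, and at 0 or up to 0.066 elsewhere. Odontoblasts also make Dmp1, Phex, Bglap, Ibsp and type I collagen, so results that rest on these libraries are given with and without them. Their part in the results was not tested.

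**Figure D1:**
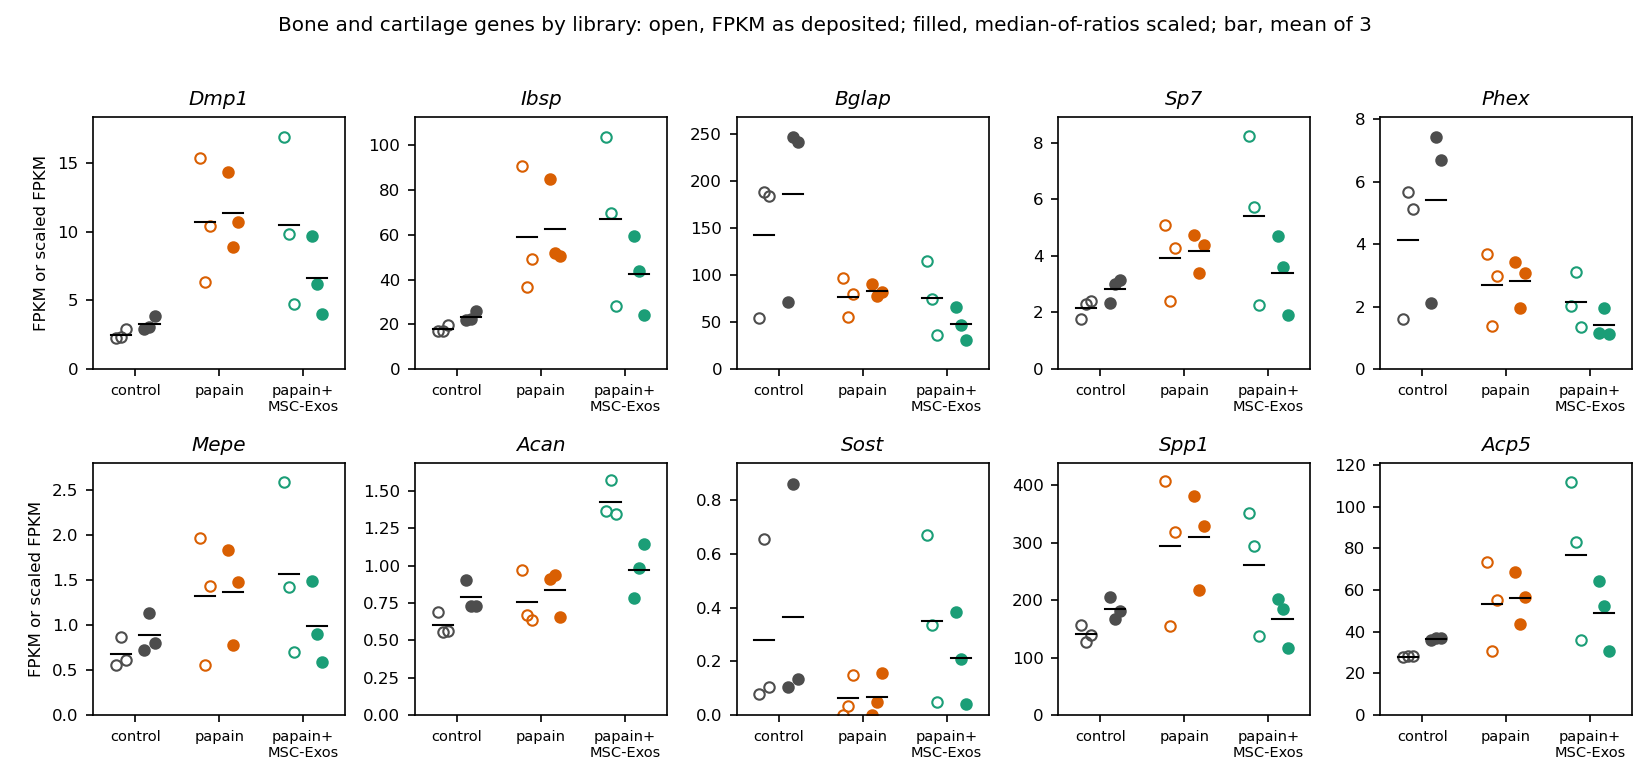
Level of each of the 10 genes in every library, by group: open circles are FPKM as deposited, filled circles are the scaled FPKM, and each bar is the mean of 3 libraries; every panel has its own axis from 0. The Dmp1 and Ibsp points of the papain group lie above all control points on both scales, whereas Bglap and Phex have 2 control points far above the third.

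Dmp1 and Ibsp, the SIBLING genes most closely tied to mineralizing bone, were higher after papain than in controls on both scales. Dmp1 encodes dentin matrix protein 1, a nucleator of mineral made mostly by osteocytes. It was at 2.25, 2.34 and 2.94 FPKM in the controls, 15.4, 6.33 and 10.4 after papain, and 16.9, 9.85 and 4.72 with exosomes. Every library of both treated groups was above every control. The papain mean of 10.7 ± 4.53 (SD, n = 3) was 4.27-fold that of the controls, 2.51 ± 0.379 (n = 3), and Dmp1 rose by 1.67 ± 0.31 on the log2 scale (limma adjusted p = 0.0031); after scaling the rise was 1.51 ± 0.25 (adjusted p = 0.0059).

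Ibsp, bone sialoprotein, is secreted by osteoblasts where new mineral forms. It was at 16.8, 17.0 and 19.7 FPKM in the controls, 90.9, 36.7 and 49.2 after papain, and 104, 69.7 and 28.2 with exosomes. As deposited every treated library was again above every control, and the mean with exosomes was 67.2 FPKM against 58.9 after papain. After scaling, exosome library 3, at 23.9, lay below control 3, at 25.8, and the 2 means were 42.4 and 62.4. The scaled difference between exosomes and control was 0.74 ± 0.30 and was not called (limma adjusted p = 0.0871). The deposited papain mean was 3.30-fold that of the controls. Against the controls, Ibsp rose after papain by 1.57 ± 0.34 as deposited (limma adjusted p = 0.0107) and by 1.34 ± 0.30 after scaling (adjusted p = 0.0206). The ratio of Dmp1 to Ibsp FPKM was 0.133 to 0.149 in the controls, 0.169 to 0.212 after papain and 0.141 to 0.168 with exosomes, so that all papain libraries lay above all controls. Over the 9 libraries their scaled log2 values had a Pearson r of 0.98, given as a description of libraries that share depth and composition.

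Of the 10 members, 9 were tested as deposited and 8 after scaling. Mepe and Acan passed the filter, 1 FPKM in 3 libraries, only through treated libraries, so counts of members below are over the other 7, which reached 1 FPKM in every library on both scales. Dmp1 and Ibsp were the only members called in papain against control, 2 of these 7 on either scale. Among all tested genes 3.01% were called higher and 0.518% lower as deposited, and 5.77% and 4.15% after scaling. With no filter on low values neither was called (limma adjusted p = 0.119 and 0.168). Without control 2 and control 3 a single control is left, the one without tooth transcripts, and here and below it is assumed to vary like the libraries of the other groups, from which alone the spread then comes. On that assumption Dmp1 changed by 1.77 (adjusted p = 0.0094) and Ibsp by 1.65 (0.0269) as deposited; after scaling the changes were 1.62 and 1.42 and neither was called (adjusted p = 0.154 and 0.276), nor was either with exosome library 3 left out as well (0.0941 and 0.15). The scaled call of Ibsp was also lost when any of the 3 controls was left out (adjusted p = 0.06 to 0.0707).

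Spp1 and Mepe complete the SIBLING genes of the set. Spp1 encodes osteopontin, a matrix protein that macrophages and epithelia also secrete. It was the most abundant member in treated tissue, at 157, 127 and 139 FPKM in the controls, 407, 154 and 319 after papain, and 351, 295 and 138 with exosomes. Papain library 2 and exosome library 3 lay within the control range and the other 4 treated libraries well above it. The difference between papain and control was 0.95 ± 0.32 as deposited (limma adjusted p = 0.115) and 0.71 ± 0.24 after scaling (adjusted p = 0.0943), so Spp1 was not called. It was called when papain library 2 was left out (1.35, adjusted p = 0.0057, and 0.94, adjusted p = 0.0351, on the 2 scales), and with the replicate number as a block as deposited (adjusted p = 0.0398).

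Mepe, an osteocyte phosphoglycoprotein that restrains mineralization, was close to the detection range of the table, at 0.556, 0.864 and 0.609 FPKM in the controls, 1.96, 0.552 and 1.44 after papain, and 2.59, 1.43 and 0.696 with exosomes. The groups overlapped. The papain difference was 0.42 ± 0.24 as deposited (limma adjusted p = 0.390) and 0.31 ± 0.20 after scaling (0.373). The SIBLING neighbours thus spanned more than 2 orders of magnitude in level within each group, from Mepe to Spp1.

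Bglap and Phex gave a different pattern from Dmp1 and Ibsp. Bglap, osteocalcin, is a calcium-binding protein that osteoblasts and odontoblasts secrete. It was at 54.9, 189 and 185 FPKM in the controls, 97.0, 55.0 and 79.8 after papain, and 115, 74.7 and 36.5 with exosomes. The 2 high controls are the ones with tooth transcripts, and control 1 lay just below the lowest papain library. The difference between papain and control was -0.72 ± 0.39 (limma adjusted p = 0.366) and -0.96 ± 0.43 after scaling (0.198). Without control 2 and control 3 its sign turned, to 0.45 as deposited and 0.21 after scaling (adjusted p = 0.999 and 0.850). Without control 1 instead, Bglap was called lower on both scales (-1.30, adjusted p = 0.0282, and -1.54, adjusted p = 0.012).

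Phex, the osteocyte endopeptidase that is mutated in X-linked hypophosphataemia, followed Bglap. It was at 1.61, 5.68 and 5.12 FPKM in the controls, 3.68, 1.40 and 2.98 after papain, and 2.02, 3.12 and 1.34 with exosomes. Again control 2 and control 3 were high and control 1 lay within both treated groups. The papain difference was -0.42 ± 0.31 (limma adjusted p = 0.495) and -0.64 ± 0.34 after scaling (0.266), and it turned to 0.44 and 0.28 without control 2 and control 3. Without control 1 it was called lower after scaling (-1.1, adjusted p = 0.0164). Bglap and Phex had a Pearson r of 0.93 over the 9 libraries, while Bglap had -0.24 with Dmp1 and -0.22 with Ibsp.

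**Figure D2:**
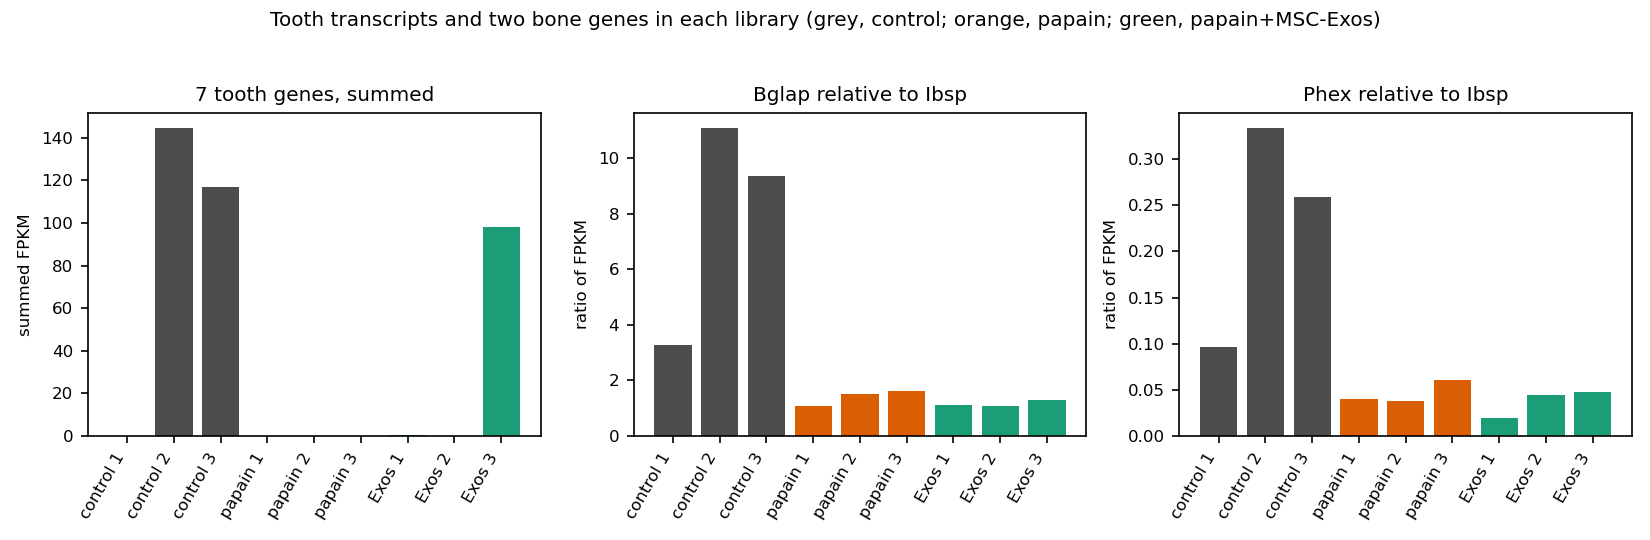
Summed FPKM of 7 tooth genes in each library (left) and the ratio of Bglap (middle) and Phex (right) to Ibsp within the library, as bars from 0; grey is control, orange papain and green papain+MSC-Exos. Control 2 and control 3 carry tooth transcripts and the highest ratios, papain+MSC-Exos 3 carries Amelx and Ambn without a raised ratio, and control 1, without tooth transcripts, still has a ratio above all 6 treated libraries.

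Ratios within a library do not depend on its scale, and Ibsp was taken as the reference after the values were seen. Bglap relative to Ibsp was 3.26, 11.1 and 9.36 in the controls, 1.07, 1.5 and 1.62 after papain, and 1.11, 1.07 and 1.29 with exosomes. Even control 1, in which the tooth genes summed to 0.0225 FPKM, was above every treated library. The summed FPKM of the 3 osteocalcin copies gave 8.02, 17.4 and 16.5 in the controls against 1.97 to 3.33 after papain and 2.03 to 3.39 with exosomes. That sum can still depend on how shared reads were treated and on the length used for each copy. Bglap3, the most divergent copy, was nearly level among the controls (2.57, 2.22 and 2.79 relative to Ibsp) and at 0.252 to 0.790 after papain and 0.300 to 1.18 with exosomes. These ratios were not tested.

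The same holds for the rest of the set in part. Phex relative to Ibsp was 0.0959, 0.333 and 0.259 in the controls and 0.0195 to 0.0606 in the treated libraries, again with no overlap. Sp7 relative to Ibsp was 0.106 to 0.134 in the controls, 0.0559 to 0.0868 after papain and 0.0793 to 0.0822 with exosomes. Acp5 relative to Ibsp was 1.43 to 1.66 in the controls and 0.806 to 1.28 in the treated libraries, and Spp1 relative to Ibsp 7.04 to 9.31 and 3.38 to 6.49. In all 6 treated libraries Ibsp thus stood higher relative to Bglap, Phex, Sp7, Acp5, Mepe and Spp1 than in any control. These ratios share Ibsp, which was itself called higher after papain, so they are not separate results. How many of all genes would show the same against Ibsp was not looked at.

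**Figure D3:**
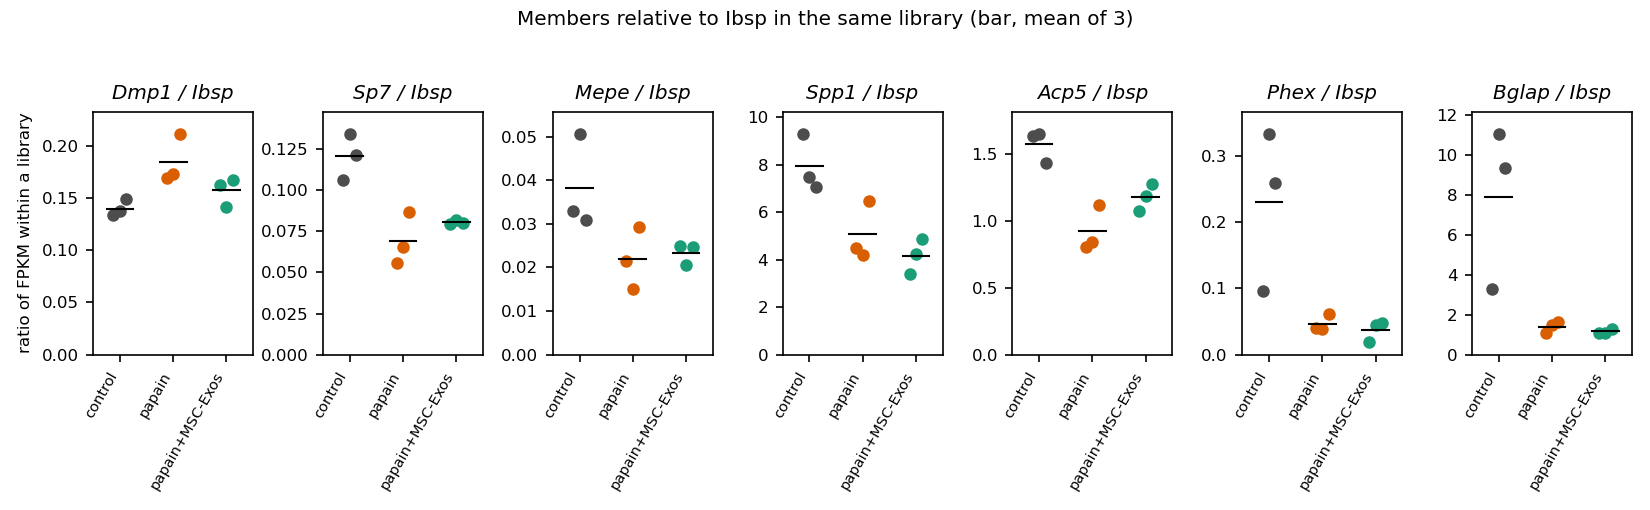
Ratio of 7 members to Ibsp in the same library, by group, with the mean of 3 libraries as a bar and every axis from 0. The 3 controls lie above all treated libraries for Sp7, Mepe, Spp1, Acp5, Phex and Bglap, and below all papain libraries for Dmp1.

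Sp7, or osterix, the transcription factor that commits cells to the osteoblast line, was at 1.78, 2.29 and 2.40 FPKM in the controls, 5.08, 2.40 and 4.27 after papain, and 8.23, 5.73 and 2.26 with exosomes. Papain library 2 was barely above the highest control, so the papain and control libraries did not overlap, but exosome library 3 lay among the controls. The difference was 0.60 ± 0.29 as deposited (limma adjusted p = 0.297) and 0.43 ± 0.22 after scaling (0.242).

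Acp5, tartrate-resistant acid phosphatase, is the classic enzyme of osteoclasts and is also made by some activated macrophages. It was nearly constant in the controls, at 27.6, 28.2 and 28.3 FPKM, and was at 73.3, 30.9 and 55.2 after papain and 112, 83.1 and 35.9 with exosomes. All treated libraries were above all controls as deposited. The papain difference of 0.81 ± 0.32 was not called (limma adjusted p = 0.189; scaled 0.58 ± 0.24, adjusted p = 0.166), and without papain library 2 it was, as deposited (1.15, adjusted p = 0.0232). Acp5 was also set against Ctsk, the collagen-degrading protease of osteoclasts. Their ratio was 0.674 to 0.808 in the controls, 0.807 to 0.922 after papain and 0.808 to 1.05 with exosomes. The means were 0.729, 0.861 and 0.966, and the ratio was not tested.

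Acan and Sost were at the bottom of the table. Acan, aggrecan, the main proteoglycan of cartilage, was at 0.689, 0.556 and 0.560 FPKM in the controls, 0.970, 0.667 and 0.639 after papain, and 1.36, 1.57 and 1.35 with exosomes. It entered the test only through the 3 exosome libraries and was not tested after scaling. Sost, the osteocyte inhibitor of Wnt signalling, was at 0.079, 0.655 and 0.102 FPKM in the controls, 0, 0.035 and 0.15 after papain, and 0.669, 0.334 and 0.047 with exosomes. It was below 1 FPKM in all 9 libraries and was not tested, while Dmp1 and Phex, which osteocytes also make, were above 1 FPKM in every library.

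Of the 7 members at 1 FPKM or more throughout, 4 as deposited (Dmp1, Ibsp, Sp7 and Acp5) and 5 after scaling (these and Spp1) had all papain libraries above all controls, and none had all below. Among all tested genes 20.7% had all papain libraries above and 2.42% all below as deposited, and 15.8% and 14.7% after scaling. Without control 2 and control 3 the differences of Spp1, Acp5, Sp7 and Mepe as deposited were 0.79, 0.84, 0.78 and 0.52, none of them called. Spp1 and Acp5 were called higher when exosome library 3 was left out of the shared fit (limma adjusted p = 0.0221 and 0.0326 as deposited, 0.046 and 0.0432 scaled) and when only the 2 groups were fitted (0.0055 and 0.0127, with Sp7 at 0.0494). The median change of the 7 was 0.81 against 0.19 for all tested genes as deposited, and 0.58 against -0.00 after scaling.

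**Figure D4:**
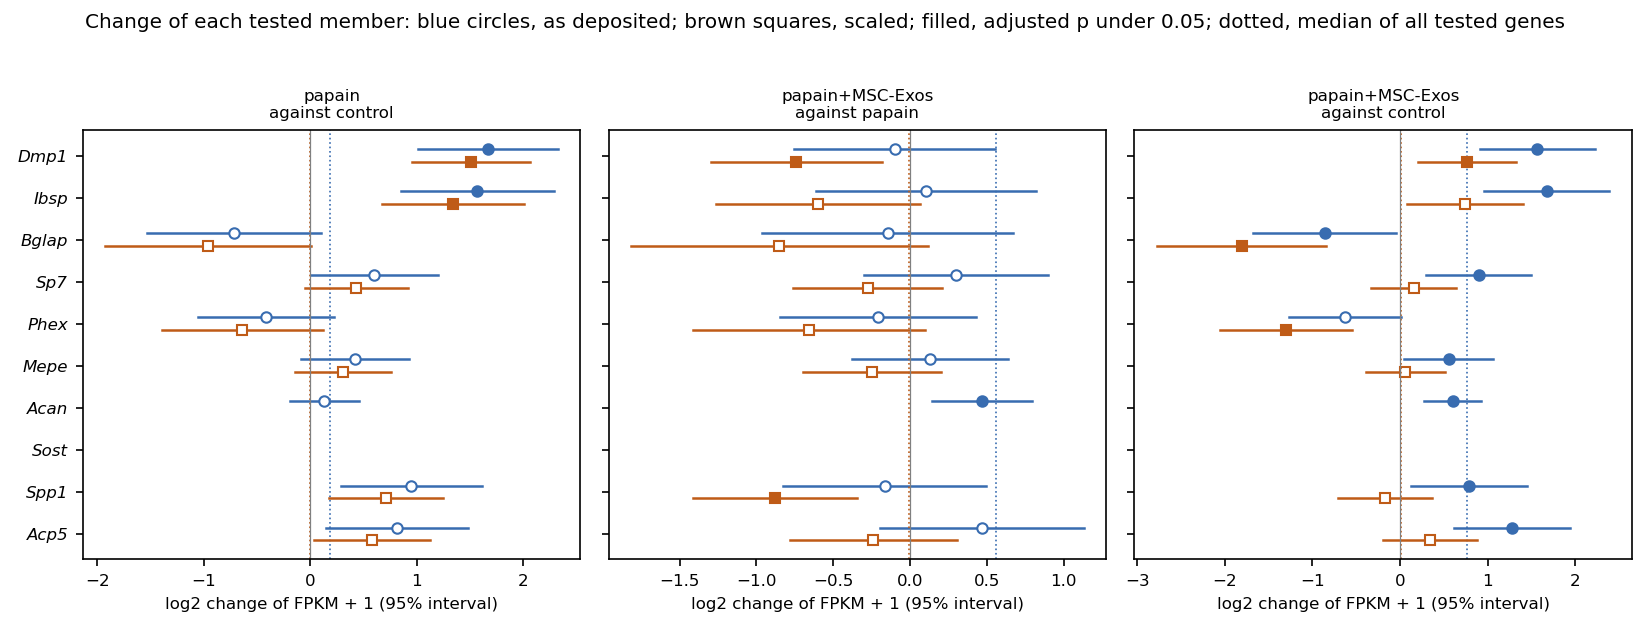
Change of each tested member in the 3 comparisons, as the difference of log2(FPKM + 1) with its 95% interval; blue circles are as deposited and brown squares scaled, filled symbols have an adjusted p under 0.05, and dotted lines mark the median of all tested genes on each scale. Dmp1 and Ibsp lie to the right of 0 in papain against control on both scales, and all 8 scaled members lie to the left of 0 in papain+MSC-Exos against papain. Sost was not tested, Acan only as deposited, and the panels differ in the range of their axes.

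Exosome libraries were compared with the papain libraries, which are also the treated side of the comparison above, so the 2 sets of changes are not independent. As deposited none of the 7 members at 1 FPKM or more throughout was called (limma, Benjamini-Hochberg; 0 also at an unadjusted p under 0.05), where 63% of all tested genes were called higher and 0.73% lower. None of the 7 had all exosome libraries above or below all papain libraries, which held for 57.5% and 0.816% of all tested genes. Acan was higher by 0.47 ± 0.16 with exosomes, but it could enter the test only because the exosome libraries were high, so no call is read from it. On the scaled values of Acan (0.908, 0.939 and 0.658 after papain against 0.782, 0.985 and 1.15 with exosomes) the groups overlapped. The other 8 tested members differed by -0.21 to 0.47 with intervals that include 0; that of Ibsp ran from -0.61 to 0.82.

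After scaling, all 8 tested members had a negative difference, with a median of -0.66 over the 7 against -0.01 for all tested genes. Dmp1 fell by 0.74 ± 0.25 (limma adjusted p = 0.0497) and Spp1 by 0.88 ± 0.24 (0.0233), where 16.2% of all tested genes were called lower and 13.4% higher. Scaled Spp1 was at 381, 217 and 329 after papain and 201.2, 185 and 117 with exosomes, with no overlap. Scaled Dmp1 was at 14.4, 8.91 and 10.7 after papain and 9.69, 6.17 and 4.01 with exosomes, so that the highest exosome library lay within the papain range. Bglap and Phex also had all exosome libraries below all papain libraries (scaled Bglap 90.8, 77.5 and 82.1 against 65.8, 46.8 and 31.0). For scaled Phex this was nearly a tie, with 1.967 in papain library 2 and 1.958 in exosome library 2. Neither gene was called (-0.85 ± 0.43, limma adjusted p = 0.162, and -0.66 ± 0.34, adjusted p = 0.166). In all, 3 of the 7 members, Phex only barely, had no overlap in this direction and none in the other, against 23.8% and 21.1% of all tested genes.

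Both scaled calls were narrow. Dmp1 was not called with the replicate number as a block (adjusted p = 0.0512), without control 1, 2 or 3, or without papain 1, papain 3, exosome 2 or exosome 3 (0.0647 to 0.133). Spp1 was not called without papain 1 or papain 3 (0.0615 and 0.0732), nor without control 2 and control 3 together (0.0529). Without the 3 libraries that carry tooth transcripts the scaled differences were -0.47 for Dmp1 (limma adjusted p = 0.176) and -0.64 for Spp1 (0.0925), while Bglap was called lower (-0.58, adjusted p = 0.0434). As deposited, leaving out exosome library 3 gave a call of higher levels for Ibsp (0.63, adjusted p = 0.0407), Sp7 (0.72, 0.0061) and Acp5 (0.93, 0.0031), the last also without papain library 1 (0.74, 0.0268). Without control 1, scaled Bglap and Phex were called lower at an unchanged difference (0.0278 and 0.0275). The direction of the exosome difference therefore depended on the scale: Ibsp, Sp7, Mepe and Acp5 had a positive sign as deposited and a negative sign after scaling.

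Against the controls, which both comparisons with papain-treated tissue share, 5 of the 7 members at 1 FPKM or more throughout were called higher as deposited (Dmp1, Ibsp, Sp7, Spp1 and Acp5) and Bglap lower, where 84.3% of all tested genes were called higher and 0.526% lower. The share of members called higher is thus no larger than that of all genes, and their median was 0.90 against 0.76. In 3 of the 7 (Dmp1, Ibsp and Acp5) all exosome libraries were above all controls, which held for 87.5% of all tested genes, with 0.589% all below. The largest differences were those of Ibsp (1.67 ± 0.34, limma adjusted p = 0.0004), Dmp1 (1.57 ± 0.31, 0.0004) and Acp5 (1.28 ± 0.32, 0.0015). After scaling 1 of the 7 was called higher and 2 lower, where 12.3% and 15.6% of all tested genes were. Dmp1 was higher by 0.77 ± 0.25 (adjusted p = 0.0453), with every exosome library above every control, as in 23% of all tested genes (all below in 23.9%). That call was lost without control 1, 2 or 3, papain 3, exosome 1 or exosome 2 (adjusted p = 0.0622 to 0.143) and without control 2 and control 3 together (0.88, adjusted p = 0.199).

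Leaving out control 2 and control 3 leaves a single control, whose own spread is unknown, so only differences are given here for such fits. As deposited they were 1.67 for Dmp1, 1.75 for Ibsp, 1.08 for Sp7 and 1.30 for Acp5. Mepe and Spp1 differed by 0.66 and 0.63. With exosome library 3 left out as well, again against the single control, Mepe differed by 0.92 and Spp1 by 1.03. Dmp1, Ibsp, Sp7 and Acp5 then differed by 1.5 to 2.27. As deposited Mepe passed the filter only through treated libraries, so no call is read from it. The deposited difference of Bglap was -0.86 ± 0.39 with all libraries (limma adjusted p = 0.0473). It was not called without control 2, control 3 or exosome 3 (0.164 to 0.268) or with a pseudocount of 0.1 (0.0521). Single libraries decided other calls as deposited. The call of Sp7 was lost without exosome 1 (limma adjusted p = 0.0662) and that of Spp1 without control 2, exosome 1 or exosome 2 (0.0664 to 0.154). Phex was called lower without control 1, papain 1, papain 2 or exosome 2 (0.0029 to 0.045). After scaling, Ibsp and Acp5 were called higher without exosome 3 (1.1, 0.0085, and 0.64, 0.0232).

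Bglap and Phex were lower than in the controls after scaling, with differences of -1.81 ± 0.43 (limma adjusted p = 0.0152) and -1.30 ± 0.34 (0.0213), and the libraries did not overlap. Scaled Bglap was at 71.8, 247 and 242 in the controls against 65.8, 46.8 and 31.0 with exosomes, and scaled Phex at 2.11, 7.45 and 6.69 against 1.16, 1.96 and 1.14. Without control 2 and control 3 the differences shrank to -0.64 and -0.38 and were not called (adjusted p = 0.276 and 0.390); as deposited they turned positive, 0.30 and 0.23. Control 1, the only control without tooth transcripts, was still above all exosome libraries for scaled Bglap and Phex. The scaled Bglap call was also lost without control 3 (adjusted p = 0.0586), and that of Phex without control 2, control 3 or exosome 1 (0.0635 to 0.0778).

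The wider osteoblast list gave few calls after papain. Of its 17 genes, which hold no member, 14 were tested as deposited in papain against control. None was called higher and only Bglap3 lower (-0.74 ± 0.19, limma adjusted p = 0.0310), where 3.01% and 0.518% of all tested genes were. For Bglap3 all 3 papain libraries were below all controls, as in 2.42% of all tested genes. After scaling 15 were tested, with 1 called higher and 1 lower, where 5.77% and 4.15% of all tested genes were. These were Tnfrsf11b, the decoy receptor that restrains osteoclast formation (0.50 ± 0.11, limma adjusted p = 0.0177), and Bglap3 (-0.98 ± 0.25, 0.0342). Runx2 was at 1.2, 0.989 and 1.56 FPKM in the controls and 2.78, 1.62 and 2.19 after papain; its difference of 0.50 ± 0.22 was not called (adjusted p = 0.25), although the libraries did not overlap. Col1a1, type I collagen, was at 63.4, 175 and 143 FPKM in the controls and so shared the high controls 2 and 3 with Bglap and Phex.

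With exosomes the osteoblast list held 4 calls of 14 over papain as deposited, where 63% of all tested genes were called higher, led by Dlx3 and Alpl, the mineralization phosphatase (0.87 ± 0.24, limma adjusted p = 0.0052, and 0.88 ± 0.29, 0.0132), and 2 of 15 below papain after scaling, where 16.2% were. These 2 were Tnfrsf11b (-0.83 ± 0.11, adjusted p = 0.0024) and Bglap2 (-0.90 ± 0.28, 0.0366). Against the controls, 8 of 14 were called higher and Bglap3 lower as deposited, where 84.3% and 0.526% of all tested genes were; after scaling Smpd3 was called higher (0.46 ± 0.15, 0.0460) and Bglap3, Bglap2, Omd and Tnfrsf11b lower, 1 and 4 of 15 where 12.3% and 15.6% of all tested genes were. Bglap2 and Bglap3 each had a difference of -1.45 (SE 0.28 and 0.25, adjusted p = 0.0066 and 0.0042), so all 3 osteocalcin copies were below the controls on the scaled values.

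No gene of the osteocyte and mineral-handling list (11 of 15 tested) passed the test after papain on either scale. With exosomes against papain, 7 of 11 were called higher as deposited, near the 63% of all tested genes, among them Phospho1, a phosphatase that starts mineralization in matrix vesicles (0.99 ± 0.26, limma adjusted p = 0.0042), and Slc20a2, a phosphate transporter (0.77 ± 0.23, 0.0080). After scaling none was higher and 2 of 11 were lower, where 16.2% of all tested genes were: Mgp, matrix Gla protein, an inhibitor of calcification (-0.91 ± 0.12, 0.0026), and Galnt3, which glycosylates the phosphate hormone Fgf23 (-0.70 ± 0.11, 0.0035). Both were also lower than in the controls after scaling (-0.64 ± 0.12, 0.0062, and -0.77 ± 0.11, 0.0022).

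The osteoclast list (9 of 14 tested) had no call after papain on either scale. With exosomes against papain, 4 of 9 were called higher as deposited, where 63% of all tested genes were. After scaling 2 of 9 were, where 13.4% were, and 4 of 9 had a positive difference. The scaled list median was -0.12 against -0.01 for all tested genes. Scaled Ctsk was at 74.3, 51.0 and 70.4 after papain and 61.5, 49.7 and 37.8 with exosomes. Nfatc1, the transcription factor that drives osteoclast formation, was called higher as deposited (1.15 ± 0.22, limma adjusted p = 0.0008) and after scaling (0.56 ± 0.11, 0.0068). Clcn7, the chloride transporter of the resorbing membrane, was as well (0.87 ± 0.21, 0.0026, and 0.25 ± 0.08, 0.0355). Tcirg1, a subunit of the proton pump, was called higher against the controls on both scales (1.14 ± 0.20, limma adjusted p = 0.0002, and 0.27 ± 0.07, 0.0281). After scaling it was 1 of 9, where 12.3% of all tested genes were called higher. All these genes are also expressed outside bone.

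Cartilage genes other than Acan (13 of 21 tested) had no call after papain on either scale. With exosomes as deposited, only Col9a3 was called higher than after papain (0.51 ± 0.20, limma adjusted p = 0.0359), where 63% of all tested genes were; after scaling none was higher and 4 of 13 were lower, where 16.2% were, led by Snorc, a chondrocyte membrane proteoglycan (-0.68 ± 0.13, 0.0067), and Sox9, the chondrocyte transcription factor (-0.60 ± 0.12, 0.0073). Wnt and BMP genes of bone (11 tested as deposited, 10 scaled) had no call after papain as deposited. After scaling 1 was called lower, where 4.15% of all tested genes were. It was Wif1, a secreted Wnt inhibitor (-0.69 ± 0.12, limma adjusted p = 0.0075). With exosomes against papain 5 of 11 were called higher as deposited, where 63% of all tested genes were. They were led by Lrp5, a Wnt co-receptor (0.87 ± 0.19, limma adjusted p = 0.0015), and Bmp7 (0.84 ± 0.21, 0.0036). After scaling only Lrp6 was called, lower (-0.23 ± 0.08, 0.0475), where 16.2% of all tested genes were lower. In papain against control as deposited, the median change was 0.37 for the osteoblast list, 0.21 for osteocyte, 0.29 for osteoclast, 0.12 for cartilage and 0.19 for Wnt and BMP genes, against 0.19 for all tested genes.

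Against the controls, exosome libraries had 7 of 11 osteocyte, 8 of 9 osteoclast, 5 of 13 cartilage and 9 of 11 Wnt and BMP genes called higher as deposited, and none lower, where 84.3% of all tested genes were higher. After scaling, 2 osteocyte (Mgp and Galnt3), 3 cartilage (Snorc, Sox9 and Col11a1) and 2 Wnt and BMP genes (Wif1 and Bmp4) were called lower, where 15.6% of all tested genes were, and only Tcirg1 of these 4 lists was called higher. The median change of the cartilage genes was 0.35 against 0.76 for all tested genes as deposited, and -0.31 against 0.01 after scaling.

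Macrophages also make Spp1 and Acp5, so their genes were looked at. Of the macrophage list, 4 of 11 tested genes were called higher after papain as deposited, where 3.01% of all tested genes were, led by C1qa, a complement component of resident macrophages (1.05 ± 0.20, limma adjusted p = 0.0039), and Mrc1, the mannose receptor (0.69 ± 0.17, 0.0236). The summed level of the list was 205 to 273 FPKM in the controls, 365, 378 and 505 after papain and 641 to 926 with exosomes. Lyz2 alone was at 279, 314 and 401 FPKM in papain libraries 1, 2 and 3, most of each sum. Papain library 1, which had the most Spp1 and Acp5 of the papain group, had its lowest macrophage sum. As deposited this rested on Lyz2, as the other listed genes above 0 in the papain group were lowest in papain library 2. After scaling the sum of papain library 1 (341) lay within the controls (269 to 358). Scaled C1qa was also lowest there, at 21.4 against 24.4 and 26.7. Scaled Cd68, Csf1r and Gpnmb were instead lowest in papain library 2, at 5.62, 4.26 and 4.78. The remaining listed genes above 0 in the papain group were lowest in papain library 1 after scaling. After scaling 3 of 11 were called higher, where 5.77% of all tested genes were. Marco was listed at 0 in every control and papain library, and the other 11 were above 0 in all libraries. The part of macrophages in the Spp1 and Acp5 values was not tested.

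Bone marrow was also looked for. In the marrow and red-cell list of 15 genes, Elane, Mpo, Ctsg, Fcnb, Vpreb1 and Igll1 were at most at 0.423 FPKM in any library. Other precursor genes were higher: Prtn3 was at 0.427 to 1.43 FPKM, Camp at 0.437 to 3.49, Ngp at 1.34 to 5.66 and Vpreb3 at 6.47 to 16.9. Of the list, 1 of 8 tested genes was called higher after papain on the deposited values, where 3.01% of all tested genes were. It was Ltf, lactoferrin (1.16 ± 0.21, limma adjusted p = 0.0027), which nasal glands also secrete. The summed level of this list was 388 to 427 FPKM in the controls, 589 to 714 after papain and 984 to 1468 with exosomes. Without Ltf the other 14 genes summed to 194 to 210 FPKM in the controls, 173 to 257 after papain and 322 to 476 with exosomes. The papain and control libraries thus overlapped. After scaling the sums were 254 to 274, 179 to 293 and 185 to 298, so all groups overlapped. Most of each sum came from the red-cell genes Hba-a1 and Hbb-bs, at 89.0 and 107 FPKM of the 208 in control 1. Fibroblast and periosteum genes (6 of 6 tested) had no call after papain as deposited. After scaling 2 were called lower, where 4.15% of all tested genes were. These were Dcn (-0.82 ± 0.12, limma adjusted p = 0.0038) and Thy1 (-0.36 ± 0.10, 0.0419). With exosomes, 4 of 6 were called lower than after papain and all 6 lower than in the controls after scaling. Among all tested genes 16.2% and 15.6% were. The fibroblast and periosteum genes summed to 255 to 298 FPKM in the controls, 181 to 278 after papain and 226 to 342 with exosomes. Skeletal muscle genes summed to 1.96 to 26.7 FPKM, and none of the 3 tested was called in any comparison on either scale. The part of marrow and of fibroblasts in the bone values was not tested.

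The genes most like each member over the 9 libraries were found on scaled log2 values by Pearson r, as a description. Bglap was most like Ddr2, a collagen receptor (0.98), and Ccn4, a Wnt-induced matricellular gene of osteoblasts (0.98). Sp7 was most like Bmp3 (0.96) and Npnt (0.96), matrix and growth-factor genes, and Acp5 like Lsm2 (0.99) and Pth1r, the parathyroid hormone receptor (0.95). Dmp1 and Ibsp shared Sgms2, a sphingomyelin synthase, as a close match (0.96 and 0.94), beside Actb (0.97) for Dmp1 and Shc2 (0.97) for Ibsp. For Phex they were Arap2 and Tagln (0.96 and 0.95), for Mepe Sept11 and Tab2 (0.93 and 0.92), and for Spp1 Tubb6 and Ptpn12 (0.96 and 0.96).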

How the data were processed

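Poly(A) RNA sequencing of 9 nasal mucosa libraries was used, with groups and numbers read from the titles. FPKM for 21930 Ensembl genes came in 1 deposited table; fastp 0.19.4, HISAT2, StringTie and mm10 are named in the submitters' processing notes. How reads shared by paralogs were treated, the annotation and the strand setting were not given in the sources used here. Symbols and coordinates were found in GENCODE M21 for 21817 genes, and promoters in RefSeq.

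The deposited FPKM entered limma 3.58.1 (R 4.3.3) after adding 1 and taking log2, with a mean-variance trend and 1 fit over all 9 libraries (genes reaching 1 FPKM in 3 libraries or more, two-sided, Benjamini-Hochberg over all tested genes, threshold 0.05), and again after median-of-ratios scaling over the 16486 genes above 0 in all libraries. The log2 scale understates the change of low genes. Whole reads could not be recovered: 32.4% to 37.9% of low values lay within 5% of whole multiples, against 35% if evenly spread, so no count test was run. The script was tested on simulated data. Members and the 11 lists of 135 genes were chosen with earlier results of these data known. Named genes are all members, the up to 2 called genes of smallest p of each list in each comparison, the 2 genes most alike each member, and genes a result turns on (tooth genes, osteocalcin copies, Runx2, Col1a1, Ctsk and the marrow and red-cell genes, chosen after their values were seen); not every gene so named is described. Alternatives were a pseudocount of 0.1, no filter, a filter at 5 FPKM, fits of the 2 groups compared, a replicate block, each library left out and, chosen after seeing the data, the libraries with tooth transcripts left out. No group-by-group overlap or ratio was tested. Plots used matplotlib 3.10.9 (Python 3.11.15).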

Additional observations from a re-analysis of the deposited data

How the results depend on the processing

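Papain against control as deposited, with 383 genes higher and 66 lower, gave 722 and 519 after scaling, 166 and 41 with no filter, 718 and 128 from the 2 groups alone, 22 lower with a filter at 5 FPKM, 82 and 17 without control 2 and 3, and 154 and 38 without all 3 libraries with tooth transcripts. Counts of members here cover all tested ones, also Mepe and Acan. As deposited these passed the filter only through treated libraries, so no call of theirs is read as a result. Every fit without control 2 and 3 has a single control, assumed to vary like the other groups. Members called higher went from 2 to 0 with no filter and 5 from the 2 groups alone. Exosomes against papain (8022 higher, 93 lower) gave 1672 and 2022 after scaling and 4467 and 56 with the filter at 5 FPKM; members went from 1 higher to 0 under both, 2 lower after scaling, and 3 higher without the 3 tooth libraries. Exosomes against control (10736 higher, 67 lower) gave 1540 and 1954 after scaling, 6046 higher with the filter at 5 FPKM, and 5764 and 39 without control 2 and 3. Members called higher went from 7 to 1 after scaling and 4 with no filter or without control 2 and 3; members called lower went from 1 to 2 after scaling or from the 2 groups alone, and 0 with a pseudocount of 0.1, no filter or without either set of tooth libraries. On scaled values, leaving out control 2 and 3, or all 3, took papain against control from 722 higher and 519 lower to 69 and 13, or 32 and 3, with 0 members called, and exosomes against control from 1540 and 1954 to 26 and 21, or 230 and 697, with 0 members called; for exosomes against papain, without the 3, Dmp1 and Spp1 both lost their calls of lower and Bglap gained one, giving 1 member called lower, and with the replicate block Spp1 alone stayed called, also 1. The cause was not tested, beyond the smaller number of libraries.

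Signs turned as follows. Without control 2 and 3, with or without exosome library 3, papain against control was 0.45 for Bglap and 0.44 for Phex as deposited, and 0.21 and 0.28 scaled. Exosomes against control were 0.30 and 0.23 without control 2 and 3 and 0.74 and 0.43 without all 3. Exosomes against papain without all 3 were 0.33 for Dmp1, 0.30 for Bglap and 0.24 for Spp1, and 0.062 for scaled Acp5. Scaling turned exosomes against papain to -0.60 for Ibsp, -0.28 for Sp7, -0.25 for Mepe and -0.24 for Acp5, and exosomes against control to -0.17 for Spp1.

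With each library left out in turn, papain against control gave 150 to 1624 genes higher, 34 to 141 lower, and 2 to 4 members higher and 0 to 1 lower as deposited, and 354 to 768, 204 to 634, 1 to 4 and 0 to 2 scaled. Exosomes against papain gave 4819 to 9529 higher with 0 to 3 members as deposited, and 734 to 1696 higher, 997 to 2199 lower and 0 to 3 members lower scaled. Exosomes against control gave 3 to 7 members higher and 0 to 2 lower as deposited, and 616 to 1691 genes higher, 877 to 2074 lower, 0 to 3 members higher and 0 to 2 lower scaled. Log2 ranges that crossed 0 were, for exosomes against papain as deposited, -0.50 to 0.33 (Dmp1), -0.30 to 0.63 (Ibsp), -0.52 to 0.30 (Bglap), -0.029 to 0.72 (Sp7), -0.14 to 0.40 (Mepe) and -0.57 to 0.24 (Spp1), and -0.46 to 0.062 for scaled Acp5, and, for exosomes against control scaled, -0.057 to 0.43 (Sp7), -0.11 to 0.21 (Mepe) and -0.32 to 0.068 (Spp1).

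Of all member results under alternatives, 584 kept direction and call, 62 lost and 36 gained a call, and 38 turned sign. Deviations from group means of same-numbered libraries correlated at -0.312 to 0.141, within the -0.408 to 0.402 of differently numbered ones. No pairing by number was seen, but with 3 libraries a group this cannot exclude one. With the replicate block the papain difference of Spp1 as deposited was called (limma adjusted p = 0.0398) and that of Dmp1 for exosomes against papain scaled was not (0.0512). Depth is unknown and 3 libraries a group limit the precision; Mepe and Acan lie near the filter and Sost below it.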
